A study of Mus musculus with 18 samples.

Results

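Expression of 4 genes of secreted matrix and matricellular proteins was followed in mouse ovaries: Fn1 (fibronectin), Thbs1 (thrombospondin 1), Ccn1 (older symbol Cyr61) and Ccn2 (older symbol Ctgf). They were selected on values measured in these same samples, for high levels in transgenic ovaries or in the tumour, so that their levels by genotype and in the tumour are given as a description. The platform annotation assigns 5 probe sets to them, 2 for Fn1 (1 on each chip type) and 1 each for the other genes on chip A, among 6137 named genes on both chip types. All 5 passed the filter on low values, Ccn1 through its values in transgenic ovaries only.

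The samples were ovaries of LHCTP transgenic mice, which hypersecrete luteinizing hormone (LH), and of wild-type mice, from CF-1 animals or CF-1xC57BL/6 F1 hybrids (called hybrid here). The transgenic conditions were the CF-1 ovary at 5 months with a granulosa cell tumour, the hybrid ovary at 5 months with a luteoma, the CF-1 ovary at 5 months treated with human chorionic gonadotropin (hCG, a ligand of the LH receptor) and described as a luteoma, and the cystic CF-1 and hybrid ovaries at 2 months. The wild-type conditions were CF-1 and hybrid ovaries at 2 and 5 months. The LHCTP transgene acts on the ovary through raised circulating LH, so that its effects there follow the hormone. Each of the 9 conditions had 1 array of chip A and 1 of chip B, with no repeat.

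Matricellular proteins are secreted into the extracellular matrix, where they act on cell behaviour through integrins and other surface receptors rather than as scaffold. Thrombospondin 1 limits angiogenesis and can release transforming growth factor beta (TGF-beta) from its latent complex, while fibronectin is a fibrillar ligand of integrins. CCN1 and CCN2 are cysteine-rich, integrin-binding proteins whose genes respond quickly to growth factors, to serum response factor (SRF) and to the YAP/TEAD regulators of the Hippo pathway. In the ovary, fibronectin lies in follicular fluid and the follicle wall, and thrombospondin 1 and CCN2 are made by granulosa cells of growing follicles.

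Gene models of mouse assembly GRCm38.p6 place Fn1 on chromosome 1 (71585473 to 71653280), Thbs1 on chromosome 2 (118111876 to 118127133), Ccn1 on chromosome 3 (145646971 to 145649985) and Ccn2 on chromosome 10 (24595442 to 24598683). Of the 4 genes, only Ccn1 was matched in the RefSeq promoter table, so its upstream sequence alone is shown. The 250 bases before the start site lie on the minus strand at chr3:145649986-145650235, and capitals mark the motif matches found on either strand.
Ccn1: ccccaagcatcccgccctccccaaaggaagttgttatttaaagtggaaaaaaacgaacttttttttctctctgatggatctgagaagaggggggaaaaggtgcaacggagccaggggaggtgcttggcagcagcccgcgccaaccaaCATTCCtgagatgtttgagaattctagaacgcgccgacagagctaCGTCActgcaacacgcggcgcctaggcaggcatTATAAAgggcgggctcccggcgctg
The stretch holds 1 match to GGAATG (the TEAD motif, here as its complement), starting 103 bases before the start site. It has 1 match to TGACG, the half-site of the cyclic AMP response element, also as its complement, 58 bases before the start site. A TATA motif, TATAAA, begins 25 bases before it. No match to TGANTCA (AP-1) or to the CArG box of SRF was found in this window, and no motif overlapped another. Over the 250 upstream bases of 32851 RefSeq promoters, GGAATG was present in 12.6%, TGACG in 17.8%, TATAAA in 12.4%, TGANTCA in 6.75% and the CArG box in 1.47%.

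Intensities are given in scaled units, after the arrays of a chip type were brought to one trimmed mean. The detection limit was 367.6 units on chip A and 581.4 units on chip B. Each array detected 54.5% to 57.9% of the chip A probe sets, or 28.0% to 29.6% of those of chip B. The arrays of the tumour, the hybrid luteoma and the 5-month CF-1 wild type shared a profile on 15 opposite-strand control probe sets (r 0.976 to 0.988 on chip A, at most 0.878 with the other arrays). The 3′ to 5′ ratio of the actin controls was 2.46 in the tumour, against 1.50 to 2.78 in the other conditions on chip A. The hybrid wild type was the only untreated 5-month ovary without this control profile, so that the profile cannot be told apart from that array in the fit, and its part in the results was not tested.

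Fn1, Thbs1 and Ccn2 were highest in the tumour. Fn1 on chip A read 8249 units in the tumour, 1259.7 in the hybrid luteoma, 1123 in the hCG-treated ovary, 2284 in the CF-1 cystic ovary and 2197 in the hybrid cystic ovary. In wild-type ovaries it read 2457 (CF-1) and 2418 (hybrid) units at 2 months, and 1077 (CF-1) and 1829 (hybrid) units at 5 months. Outside the tumour, transgenic and wild-type Fn1 values overlapped.

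A second probe set for Fn1, on chip B, gave the same picture from a separate hybridisation. For this tumour array the description gives 2 months, whereas its title and source give 5 months, which were followed. Fn1 there read 7205 units in the tumour, 1157 in the hybrid luteoma, 1004 in the hCG-treated ovary, 2070.0 in the CF-1 cystic and 1628 in the hybrid cystic ovary. The wild-type values were 2181 and 2057 units at 2 months, and 1051 and 1459 units at 5 months, each time CF-1 first. Across the 9 conditions the log2 levels of both Fn1 probe sets had Pearson's r = 0.991 (Spearman's rho = 0.967), and r = 0.973 without the tumour. These points are the same 9 conditions measured on different arrays, so the coefficient describes how repeatable the Fn1 reading was.

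Thbs1 read 5110.5 units in the tumour, 982 in the hybrid luteoma, 1369.6 in the hCG-treated ovary, 1200.2 in the CF-1 cystic and 731 in the hybrid cystic ovary. The 4 wild-type values were 897 (CF-1) and 871 (hybrid) units at 2 months, and 1248 (CF-1) and 1255 (hybrid) units at 5 months. Apart from the tumour, all conditions lay within a 1.87-fold range, and the lowest was the hybrid cystic ovary.

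Levels of different probe sets cannot be ranked against each other, so Ccn2 is read only across conditions. It read 14966 units in the tumour, 2224 in the hybrid luteoma, 2688 in the hCG-treated ovary, 3579.7 in the CF-1 cystic and 4320.4 in the hybrid cystic ovary. Wild-type ovaries read 2282 (CF-1) and 1710.3 (hybrid) units at 2 months, and 2289.9 (CF-1) and 2544 (hybrid) units at 5 months. Both cystic ovaries and, narrowly, the hCG-treated ovary stood above all wild-type ovaries, whereas the hybrid luteoma lay inside the wild-type range.

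Ccn1 followed another order. It read 525 units in the tumour, 821 in the hybrid luteoma, 386 in the hCG-treated ovary, 466 in the CF-1 cystic and 770.5 in the hybrid cystic ovary. The wild-type values were 235 (CF-1) and 262 (hybrid) units at 2 months, and 199 (CF-1) and 198 (hybrid) units at 5 months. All 5 transgenic values were above the detection limit and all 4 wild-type values were below it, so wild-type levels carry only an upper bound.

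**Figure D1:**
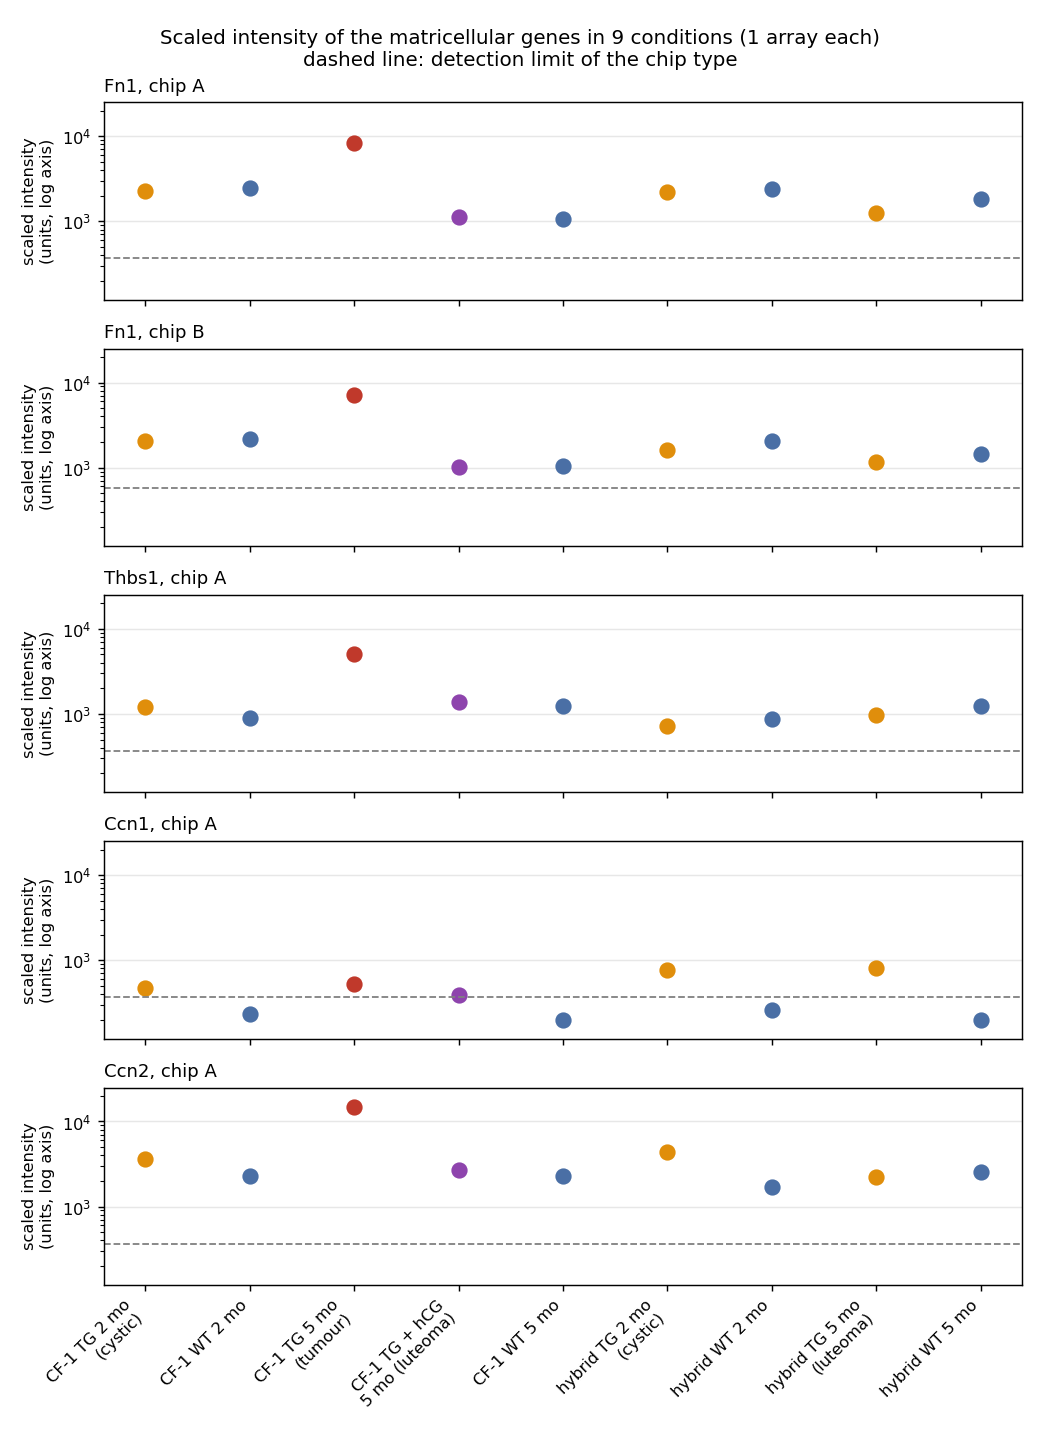
Scaled intensity (log axis) of the 5 probe sets in each condition, 1 array per point, with each transgenic (TG) ovary left of its wild type (WT) of the same strain and age. Fn1, Thbs1 and Ccn2 peak in the tumour (8249 and 7205, 5110.5 and 14966 units), whereas Ccn1 is above the detection limit (dashed) in the transgenic ovaries only.

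Averaged over the 4 untreated conditions of each genotype, Ccn1 was 646 ± 176 units in transgenic and 224 ± 31.1 units in wild-type ovaries (SD, n = 4 each). Taken against the detection limit, the lowest transgenic value was at least 1.27-fold and the geometric mean of the 4 at least 1.71-fold higher than wild type. Such a separation without overlap, with all 4 untreated transgenic above all 4 wild-type conditions, was met by 1.89% of the 6408 probe sets tested. Because the gene was chosen for this contrast, nothing further is read from that count.

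For the other probe sets the tumour held most of the spread among transgenic ovaries. Fn1 on chip A averaged 3497 ± 3201 units in transgenic and 1945 ± 646 units in wild-type ovaries, and on chip B 3015 ± 2818 and 1687 ± 528 units, transgenic first (SD, n = 4 each). Thbs1 averaged 2006 ± 2079 units in transgenic and 1068 ± 213 units in wild-type ovaries, and Ccn2 6272 ± 5860 and 2207 ± 353 units in the same order (SD, n = 4 each). Without the tumour, the 3 remaining untreated transgenic ovaries averaged 1914 ± 568 units for Fn1 on chip A, 1618 ± 457 on chip B and 971 ± 235 for Thbs1. All 3 means were then below the wild-type mean. Ccn2 still averaged 3375 ± 1063 units there (SD, n = 3).

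In the additive limma model of genotype, strain and age over the 8 untreated conditions, none of the 5 probe sets passed for genotype, and neither did any other (0% of those tested, with 642 at an unadjusted p under 0.05). The fitted log2 difference, transgenic minus wild type, was 1.50 ± 0.20 for Ccn1 (0.77 ± 0.17 with the floor doubled to the detection limit, under which its wild-type values lie), 1.13 ± 0.47 for Ccn2, 0.54 ± 0.56 and 0.51 ± 0.52 for Fn1 on chips A and B, and 0.46 ± 0.41 for Thbs1 (± SE). Leaving out the tumour turned the sign for Fn1 (-0.18 on chip A and -0.17 on chip B) and Thbs1 (-0.03), left Ccn1 at 1.51 and brought Ccn2 to 0.58.

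Set against the highest of the other 8 conditions, the tumour was 3.36-fold higher for Fn1 on chip A, 3.30-fold on chip B, 3.73-fold for Thbs1 and 3.46-fold for Ccn2. These 4 were among 23 probe sets at least 3-fold above every other condition, 0.332% of the 6938 detected on any array. In a ranking of the 5444 probe sets detected in the tumour by this ratio, Thbs1 came 10th, Ccn2 16th, and Fn1 18th and 20th. The ratio for Ccn1 was 0.64, at position 3862. Just inside the 3-fold line stood Fbln2, the matrix glycoprotein fibulin 2, at 3.12-fold, and just outside it Fam53a at 2.92-fold. These genes had been selected on this contrast, and it rests on 1 tumour hybridised once to each chip type. In whole ovaries, fewer cells of a type and less RNA per cell cannot be told apart.

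**Figure D2:**
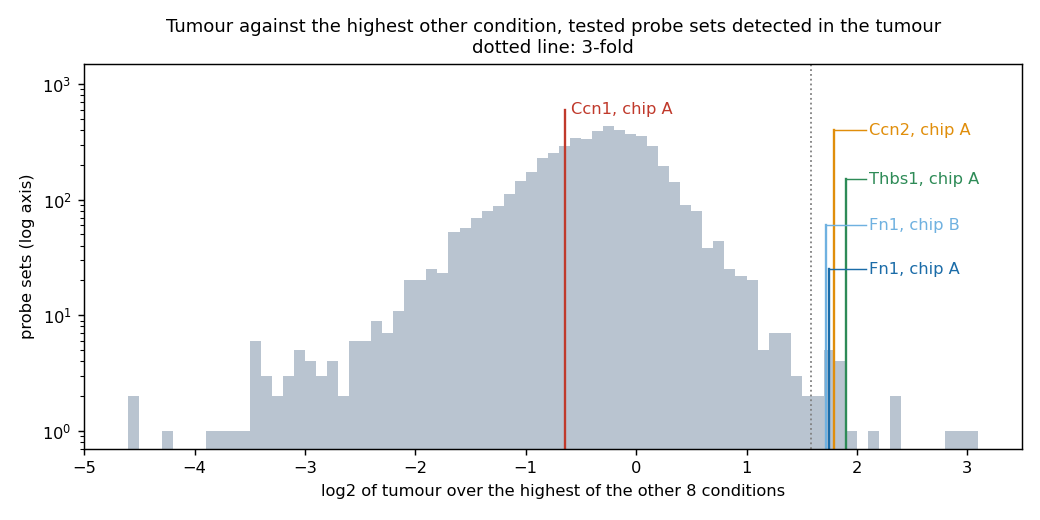
Distribution of the log2 ratio of the tumour to the highest of the other 8 conditions, over the 5341 tested probe sets detected in the tumour (counts on a log axis), with the 5 probe sets marked. Fn1, Thbs1 and Ccn2 lie right of the dotted 3-fold line at log2 ratios of 1.72 to 1.90 (3.30-fold to 3.73-fold), in the tail of the distribution. Ccn1 lies within its bulk at a log2 ratio of -0.64.

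Within pairs of the same strain and age, the pattern changed with the type of ovary. The tumour was 7.66-fold (chip A) and 6.86-fold (chip B) higher than the 5-month CF-1 wild type for Fn1, 4.10-fold for Thbs1 and 6.54-fold for Ccn2. For Ccn1 it was at least 1.43-fold higher, measured against the detection limit. By the measured values, all 5 probe sets were at least 2-fold higher, as were 5.41% of those detected on any array. With the floor doubled, the log2 difference of Ccn1 in this pair was 0.52, under 2-fold.

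Cystic ovaries at 2 months differed from their wild types in Ccn1 and Ccn2. Ccn2 was 2.53-fold higher in the hybrid cystic ovary and 1.57-fold higher in the CF-1 cystic ovary. Ccn1 was at least 2.10-fold higher in the hybrid and at least 1.27-fold higher in the CF-1 cystic ovary. By the measured values, 2 of the 5 probe sets (Ccn1 and Ccn2) were at least 2-fold higher in the hybrid pair, against 4.66% of all. In the CF-1 pair 0 were, against 3.0%. Ccn1 there measured 1.98-fold, but with wild type under the detection limit a difference of 2-fold or more is not excluded. Fn1 and Thbs1 stayed within 1.34-fold of wild type in both cystic pairs.

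In the hybrid luteoma only Ccn1 of the 4 genes was at least 2-fold higher than in wild type, by at least 2.23-fold, with 6.60% of all probe sets past the same limit. The luteoma over wild-type log2 difference was -0.54 and -0.33 for Fn1 on chips A and B, -0.35 for Thbs1 and -0.19 for Ccn2 (0.06 with median scaling). In the hCG-treated ovary 0 of the 5 probe sets differed from the CF-1 wild type by 2-fold in measured values, against 7.93% higher among all. Its Ccn1 value was at least 1.05-fold higher, the smallest of the transgenic ovaries, and its Fn1, Thbs1 and Ccn2 differed from wild type by at most 1.17-fold. Ccn1 measured 1.94-fold in this pair, where again 2-fold or more is not excluded.

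**Figure D3:**
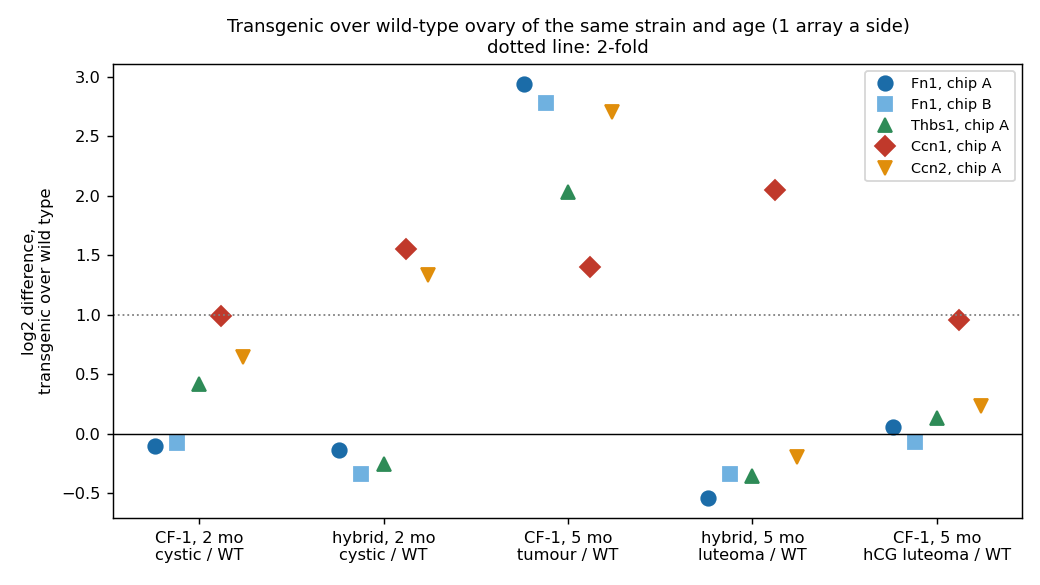
Log2 difference of each transgenic ovary over the wild type of its strain and age, 1 array a side, for the 5 probe sets, with a dotted line at 2-fold. Fn1, Thbs1 and Ccn2 exceed 2-fold in the tumour pair, Ccn1 is above 0 in all 5 pairs (measured values, with wild type under the detection limit), and Ccn2 exceeds 2-fold in the hybrid cystic pair as well.

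The transgenic ovaries were also compared among themselves. Relative to the CF-1 cystic ovary of 2 months, the tumour of the same strain was 3.61-fold (chip A) and 3.48-fold (chip B) higher for Fn1, 4.26-fold for Thbs1 and 4.18-fold for Ccn2, but 1.13-fold for Ccn1. These 4 probe sets past 2-fold compare with 8.07% of all. Relative to the hybrid luteoma, the tumour was 6.55-fold and 6.23-fold higher for Fn1, 5.21-fold for Thbs1 and 6.73-fold for Ccn2 (6.96% of all past 2-fold), whereas Ccn1 was 0.64-fold. Relative to the hCG-treated ovary it was 7.34-fold and 7.18-fold higher for Fn1, 3.73-fold for Thbs1, 5.57-fold for Ccn2 and 1.36-fold for Ccn1 (11.8% of all past 2-fold). The hybrid luteoma against the hybrid cystic ovary showed 0.51-fold Ccn2 and 0.57-fold Fn1 on chip A, and 0 of the 5 probe sets were lower by 2-fold, against 7.0% of all.

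Age was not used in choosing the genes. Outside the tumour, Fn1 was lower at 5 months than at 2 months in every condition. Its 4 values at 5 months ran from 1077 to 1829 units on chip A (mean 1322 ± 347), and its 4 values at 2 months from 2197 to 2457 units (mean 2339 ± 120.1, SD, n = 4 each). On chip B they ran from 1004 to 1459 units at 5 months and from 1628 to 2181 units at 2 months. The groups did not overlap on either chip, a pattern seen in 3.45% of the probe sets tested and picked out after its values were seen.

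In limma without the tumour array, the log2 age difference of Fn1, 5 minus 2 months, was -0.85 ± 0.21 on chip A and -0.74 ± 0.21 on chip B (± SE), with adjusted p = 0.227 and 0.233. With the 4 wild-type conditions alone it was -0.80 ± 0.31 and -0.77 ± 0.28, at adjusted p = 0.796 for both. Over all 8 untreated conditions, where the tumour counts at 5 months, it was -0.14 ± 0.56 and -0.06 ± 0.52 (adjusted p = 0.909 and 0.962). The age difference of Fn1 therefore did not pass limma's threshold in any of these fits. The CF-1 wild type and the hybrid luteoma, but neither the hybrid wild type nor the hCG-treated ovary, carried the shared control profile at 5 months. The hybrid wild type read 1829 units on chip A, the highest Fn1 value at 5 months outside the tumour. The hCG-treated ovary, also without the profile, read 1123 units on chip A and 1004 units on chip B, the lowest of all conditions on chip B.

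**Figure D4:**
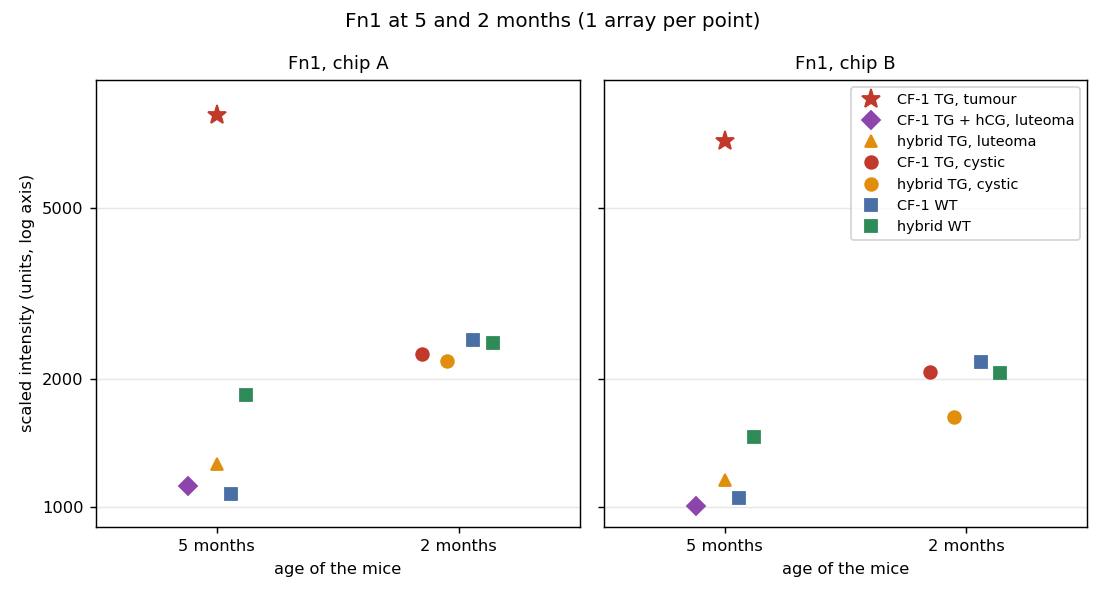
Scaled Fn1 intensity (log axis) at 5 months and at 2 months on both chip types, 1 array per point. On each chip the 4 conditions of 5 months other than the tumour lie below all 4 conditions of 2 months, and the tumour lies above both.

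For the other genes, the age difference was 0.88 ± 0.41 for Thbs1 (adjusted p = 0.285), 0.42 ± 0.47 for Ccn2 (adjusted p = 0.637) and -0.10 ± 0.20 for Ccn1 (adjusted p = 0.812), all in log2 by limma with SE. Thbs1 in the hCG-treated ovary and in both wild types of 5 months (1248 to 1369.6 units) exceeded every 2-month value (731 to 1200.2 units), but the hybrid luteoma at 982 units did not. Over all probe sets 1 passed for age (0.0156%, with 1252 at an unadjusted p under 0.05), and it was none of these genes.

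The strain difference, CF-1 minus hybrid, was 0.51 ± 0.56 and 0.65 ± 0.52 for Fn1 on chips A and B, 0.78 ± 0.41 for Thbs1, 0.69 ± 0.47 for Ccn2 and -0.38 ± 0.20 for Ccn1 (log2, ± SE). Limma's adjusted p ran from 0.687 to 0.831. Ccn1 was lower in the CF-1 than in the hybrid transgenic ovary at both ages, with 466 against 770.5 units at 2 months and 525 against 821 units at 5 months. In wild-type ovaries alone, strain differences were between -0.37 and 0.13 for all 5 probe sets. The background for strain was 2 probe sets (0.0312%, with 505 at an unadjusted p under 0.05), again none of these genes. The labels name no replicate animals, so these p-values measure the spread between single samples of different conditions.

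Receptors of these proteins were examined next, as a list of integrins, syndecans, thrombospondin receptors and related molecules. Of 27 listed, 20 were on the chips and 14 were tested, and 0 passed for genotype in either direction. Their median log2 genotype difference was 0.34, beside 0.00013 over all probe sets, and 14 of 14 lay above 0. That count was 13 with quantile normalization and 14 with median scaling, and 11 without the tumour or without the 2-month CF-1 wild type. Dag1, dystroglycan, a laminin receptor, read 16379 units in the tumour and 4888 to 8080.3 units in the other conditions. Cd36, a scavenger receptor that binds thrombospondin 1, read 4762.5 units in the tumour, 3216 in the hybrid luteoma, 976 in the hCG-treated ovary, and 1720.2 and 1005 in the CF-1 and hybrid cystic ovaries. In wild-type ovaries Cd36 read 763, 950.1 and 1059 units, and 2238 units in the CF-1 ovary of 5 months.

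The remaining receptors went both ways in the tumour pair. Cd47, another thrombospondin 1 receptor, read 1809.5 units in the tumour against 2118.5 units in its wild type. Sdc1, the proteoglycan syndecan 1, was under the floor in the tumour at 163 units, against 921 units in its wild type. Itgav, the integrin alpha v subunit that pairs to bind fibronectin and CCN proteins, read 5025 units in the tumour and 2946 to 4302 units elsewhere, so that it too was highest in the tumour. Itgb1, the common beta 1 subunit, read 10092 units in the tumour, inside the 7719 to 11283 units of the other conditions.

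The other matricellular and matrix glycoproteins did not share one direction. Of 22 listed, 14 were on the chips and 10 were tested, with 0 called and 5 above 0 for genotype (median log2 difference -0.02). In the tumour pair their median was -0.25, against 0.01 for all probe sets tested, where 3 of them were higher and 2 lower by 2-fold or more (5.41% and 6.93% of all probe sets). Fbln2 read 6071 units in the tumour and 973 to 1949 units in the other conditions, and so was highest in the tumour as were Fn1, Thbs1 and Ccn2. Vcan, the proteoglycan versican of the follicular matrix, read 3356 units in the tumour and 592 in its wild type, but 3931 units in the 2-month hybrid wild type. Tnc, tenascin C, a glycoprotein that modulates adhesion to fibronectin, read 327 units in the tumour, under the detection limit, and 1075 to 8057.5 units elsewhere. Tgfbi, an integrin-binding protein induced by TGF-beta, read 438 units in the tumour and 1254 to 2979 units elsewhere.

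Regulators tied to Ccn1 and Ccn2 were then read. In the YAP/TEAD list 8 of 23 genes were tested, with 0 called and a median genotype difference of 0.04. The median of the list in the tumour pair was 0.20 log2, with 2 of 8 members at least 2-fold higher and 1 lower, against the 5.41% and 6.93% of all probe sets given above. Tead2, a TEAD transcription factor, read 1805 units in the tumour and 289.8 to 764 units elsewhere. Ajuba, a LIM protein of the Hippo pathway, read 613 units in the tumour and 448 units in the hCG-treated ovary, the next highest. It was under the floor in 5 conditions. Gadd45b, a stress-response gene, read 396 units in the tumour and 675 to 1055 units elsewhere, and Axl, a receptor tyrosine kinase, 5488 units against 8193 units in the tumour's wild type.

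In the TGF-beta list 12 of 23 genes were tested, 0 were called, and the median was -0.02 for genotype and 0.15 in the tumour pair. Inhba, the beta A subunit of activin and inhibin A, read 12028 units in the tumour and 1562 to 5891 units elsewhere. Fst, the activin-binding follistatin, read 2804 units in the tumour and 797 to 2234 units elsewhere. Tgfb3, a TGF-beta ligand, read 197 units in the tumour, near the floor of 183.8, and 312 to 669 units elsewhere. As with Tgfbi above, this member was lowest in the tumour, where Thbs1 was highest.

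Actin and SRF target genes, which often move with Ccn1 and Ccn2, had 0 of 16 called and a median of -0.05 for both genotype and the tumour pair, where 0 members differed 2-fold. Vasp, an actin-assembly protein, had a log2 difference of 0.45 and Tagln2 of 0.14 in the tumour pair, whereas Tpm4 had -0.67 and Actb -0.66. The immediate early and heat shock list, of genes that respond within minutes to stimulation or to handling of tissue, had 0 of 19 called, a genotype median of -0.27 and a tumour pair median of -0.62. In that pair 6 of the 19 were at least 2-fold lower and 0 higher, beside 6.93% lower and 5.41% higher among all probe sets.

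Dusp1, a phosphatase of mitogen-activated protein kinases, read 408 units in the tumour and 1385 to 4621 units elsewhere. Junb, an AP-1 subunit, was below the floor in the tumour, against 642 units in its wild type. That wild type held the highest Junb value of all conditions. Junb was too low to pass the floor in every other wild-type ovary, and likewise in the cystic ovary of CF-1. The highest members in the tumour pair were Ier2, at a log2 difference of 0.33, and Btg2, at 0.22. In the 4 other pairs the list median was 0.02 (CF-1 cystic), 0.04 (hybrid cystic), -0.26 (hybrid luteoma) and 0.16 (hCG-treated). Ccn2 stood above it in each pair, narrowly in the hybrid luteoma and the hCG-treated ovary. Measured against the detection limit, Ccn1 was above it in the 4 untreated pairs, but in the hCG-treated ovary its lower bound was 0.07 log2, under the list median. Both genes were chosen for high levels in transgenic ovaries or the tumour, so their place above the list is a description. Single members of the list differed from its median. Ier2 read 975 to 1334 units in the 4 untreated transgenic ovaries and 573 to 833 units in wild-type ovaries. Ccn1 and 1.89% of the probe sets tested had such a split without overlap. In the hCG-treated ovary Ier2 read 713 units, inside the wild-type range, unlike Ccn1. For genotype, 6 members of the list lay above 0 and 13 below.

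**Figure D5:**
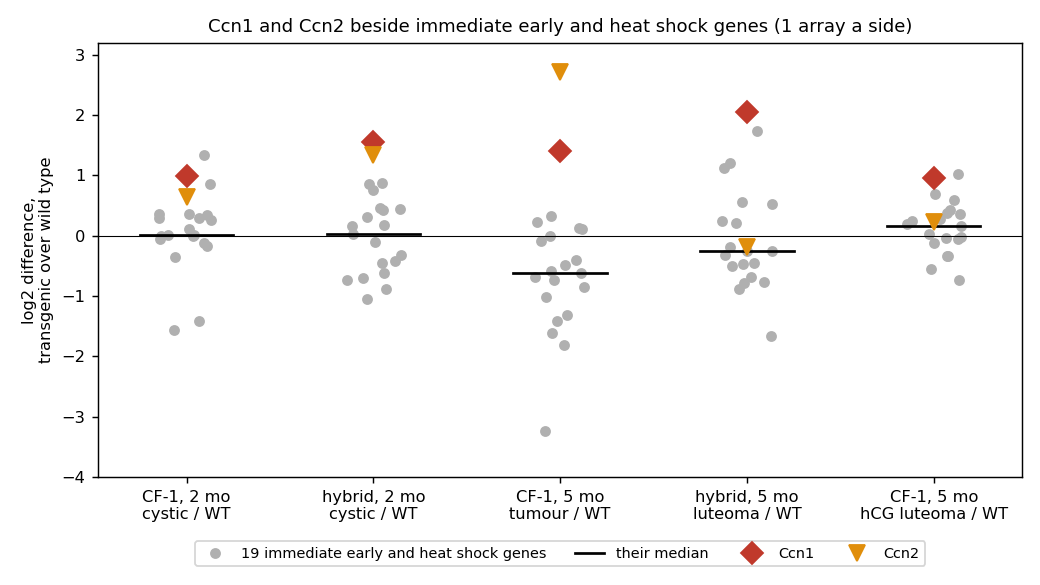
Log2 difference of each transgenic ovary over the wild type of its strain and age, 1 array a side, for the 19 tested immediate early and heat shock genes (grey, with their median) and for Ccn1 and Ccn2. In the tumour pair the median of the list is -0.62 while Ccn2 stands at 2.71 and Ccn1 at 1.40, measured against wild-type Ccn1 values under the detection limit. Both genes were chosen for high levels in transgenic ovaries or the tumour.

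Genes with the most similar order over the 9 conditions were listed for each gene, as a description of 9 points dominated in part by the tumour. For Fn1 these were Wdr6 (Pearson's r = 0.975 on log2 levels), Socs2, a suppressor of cytokine signalling (0.960), Pparg, a nuclear receptor (0.955), Cdk4, the kinase partner of D cyclins (0.949), and Scamp3 (0.948). They kept r from 0.820 to 0.914 without the tumour. Pparg read 1591 units in the tumour and 338 to 792 units elsewhere.

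For Thbs1 they were B3galnt2, a glycosyltransferase (0.969), Snrpb, a core spliceosome protein (0.964), Dnm1, a dynamin (0.963), Smad4, the shared mediator of TGF-beta signals (0.926), and Mapk10, a JNK kinase (0.921). Without the tumour r was 0.958 for Smad4, the highest of the 5. That Smad4 probe set read 3450.2 units in the tumour and 649 to 1891 units elsewhere, while another Smad4 probe set, used for the TGF-beta list because of its higher mean over the 9 conditions, read 2589 units in the tumour and 1159 to 1782 units elsewhere.

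For Ccn2 the closest were Gabpb1, a subunit of an ETS-family transcription factor (0.954), Angpt2, a ligand of the endothelial receptor Tie2 (0.938), Mdfic (0.933), Aldh18a1, an enzyme of proline synthesis (0.933), and Timm44 of the mitochondrial import machinery (0.930). Angpt2 read 3702 units in the tumour and 415 to 1569.7 units elsewhere, and kept r = 0.903 without the tumour. For Ccn1 they were Edem2, of the disposal of misfolded glycoproteins (0.930), Taf6, a subunit of TFIID (0.914), Capzb, which caps actin filaments (0.902), Gna11, a G protein alpha subunit (0.901), and Tmem59 (0.893). Edem2 read 3678 units in the tumour, and the other conditions reached up to 3979.9 units.

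Among the members themselves, the correlation between log2 levels was 0.665 for Fn1 on chip A and Thbs1, 0.800 for Fn1 and Ccn2, and 0.826 for Thbs1 and Ccn2 over 9 conditions. Without the tumour these became -0.602, 0.163 and -0.108. The high coefficients among the 3 genes were thus absent from the other 8 conditions, and each point is 1 array of chip A. Ccn1 and Ccn2, the CCN pair, had r = 0.425 over 9 conditions and 0.527 without the tumour.

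Cell type markers were summed over the genes on the chips to set beside the tumour values. All 12 granulosa markers were at or above the floor in at least 1 condition and in the tumour, where their sum was 98127 units, against 49828 to 74761 units elsewhere. Of these markers Amh, the anti-Müllerian hormone, read 415 units in the tumour, under the detection limit, and Wt1, a transcription factor of granulosa cells, 1219.5 units, and each was lowest there. Luteal markers (8 on the chips) summed to 38237 units in the tumour and 67249 to 164110 units elsewhere, with Parm1 under the floor throughout. In the hybrid luteoma the luteal sum, 91369 units, lay within the wild-type range of 67249 to 133390 units, and in the hCG-treated ovary it was the highest. The lower end of that range was the 5-month hybrid wild type, so the luteoma was above the wild type of its own strain and age. In that pair the 7 luteal markers tested had a median log2 difference of 0.38, against -0.07 for all probe sets tested.

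Fibroblast and stroma markers, a class that makes fibronectin in many tissues, summed to 61971 units over 12 genes in the tumour and 61121 to 83575 units elsewhere, with Thy1 and Pdgfrb under the floor in the tumour. Smooth muscle markers (6 genes) summed to 18336 units in the tumour and 18175 to 38975 units elsewhere, with Myh11 under the floor. Endothelial markers (9 genes) summed to 8981 units in the tumour and 7771 to 23227 units elsewhere, with Flt1 and Emcn under the floor. Macrophage markers (15 genes) summed to 41674 units in the tumour and 32782 to 92606 units elsewhere. Lyz2 alone gave 21815 units of the tumour sum, and Adgre1, H2-Ab1 and Fcgr1 were under the floor there. The 4 platelet and megakaryocyte markers, of interest because platelets store thrombospondin 1, summed to 3147 units in the tumour, the lowest, against 3969 to 6854 units elsewhere. F2r alone gave 2659 units of the tumour sum, so that the sum follows mostly this gene and is no measure of platelets. Gp5 was under the floor throughout, and Nfe2 was under it in the tumour.

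Epithelial markers (14 genes) summed to 4299 units in the tumour, with 8 under the floor, and 17992 to 35431 units elsewhere. In the 4 untreated transgenic ovaries that sum ran from 4299 to 21737 units, below the 26302 to 35431 units of all wild-type ovaries, a split in the opposite direction to that of Ccn1. The hCG-treated ovary had 28872 units. Adipocyte markers (8 genes) summed to 6196 units in the tumour and 5431 to 13767 units elsewhere. Adipoq, Fabp4, Car3 and Cidec were under the floor in the tumour, where Lpl (3227 units) and Pparg (1591 units) gave most of the sum. Oocyte markers (7 genes) summed to 2499.9 units in the tumour and 3318 to 10061 units elsewhere, with Zp1, Zp2, Zp3 and Mos under the floor in the tumour. Theca and interstitial markers (6 genes) summed to 20086 and 21602 to 39603 units in the same order, with Ptch1 under the floor throughout. The part of these cell types in the levels of Fn1, Thbs1, Ccn1 and Ccn2 was not tested.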

How the data were processed

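RNA of 9 conditions had been hybridised to chips A and B, 18 arrays. The authors deposited linear intensities, with 13.62% to 30.14% of the values of an array below 0. Their software and scaling are not given in the sources used here. On each chip type 76 control or shared probe sets were left out. Probe sets were named from the platform annotation, updated by Entrez number. Arrays were scaled to a common trimmed mean (percentiles 2 to 98), raised to a floor of 183.8 (chip A) or 290.7 (chip B) units and taken to log2. Printed levels are before the floor. Probe sets at 2 floors (the detection limit) on 2 or more of the 9 arrays entered the tests (4122 of chip A, 2286 of chip B).

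Genotype, strain and age were fitted with limma 3.58.1 (R 4.3.3) over 8 untreated conditions with 4 residual degrees of freedom. P-values were adjusted over both chips by Benjamini-Hochberg (threshold 0.05), and the fit was tested on simulated data. Pairs of single arrays used fold rules (3-fold for the tumour, 2-fold for pairs) over the 6938 probe sets detected on any array. Precision is limited by the number of arrays.

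The genes and lists were chosen with earlier results of these data known. Named were all probe sets of the 4 genes, the 5 most correlated genes of each, and the 2 highest and 2 lowest members of each pathway list by tumour over wild type. Others (Itgav, Itgb1, Amh, Wt1) were chosen after their values were seen. Alternatives were other scaling, floors, filters, variance settings, arrays left out or added, a control profile term and interactions, the last 2 chosen after seeing the data.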

Additional observations from a re-analysis of the deposited data

Results flagged for a closer look

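On linear intensities in the group of 4 untreated transgenic conditions, the tumour stood apart beyond Dixon's critical value for 4 of 5 probe sets. These genes were chosen in part for the tumour value, so this is a description and no test. Its gap to the next condition, as a share of the group's whole range, was 0.853 for Fn1 on chip A, 0.849 for Fn1 on chip B, 0.893 for Thbs1 and 0.835 for Ccn2. These shares are in linear units and would be smaller on the log2 levels used in the fits. In genes not chosen this way, chance alone flags about 1 in 20 groups of like samples. The 4 conditions here differ in strain, age and type of ovary, so that rate need not hold. For Ccn1 the tumour did not stand apart.

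The transgenic over wild-type difference of Thbs1 ran in opposite directions by strain. On the log2 scale it was 0.42 (2 months) and 2.03 (5 months) for CF-1, whereas the hybrid differences were -0.25 (2 months) and -0.35 (5 months), so that the strains' mean differences were 1.53 apart. In a limma fit with the interaction of genotype and strain, this term was 1.53 ± 0.63 (SE) with an unadjusted p of 0.0476 and an adjusted p of 0.854, and did not pass. The tumour enters the larger of the CF-1 differences.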

How the results depend on the processing

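All alternatives that were run left every one of the 5 probe sets above limma's adjusted threshold, with a lowest adjusted p of 0.0694 for Ccn1 and genotype, and 0.227 for age or strain. The genes were chosen in part for their levels by genotype, so the genotype value is a description and no test. Of the other results, 434 values of single probe sets and 47 counts kept their direction and their side of the threshold, or for counts stayed within 1.5 times. Counts of all probe sets called moved as follows. For genotype 8 passed with trend and robust variances, and 0 to 7 when 1 condition was left out (7 without the tumour, 2 without the 2-month and 1 without the 5-month CF-1 wild type). For age, 3 passed without the filter and 0 with the floor doubled, the hCG-treated array added, the profile term, trend and robust variances or wild types alone. With 1 condition left out 0 to 254 passed for age, 254 without the 5-month hybrid wild type. In that fit every 5-month array carried the shared control profile and no 2-month array did, so age and profile cannot be told apart there. For strain 6 passed without the filter, 1 with a floor of 20 units, the hCG-treated array or trend and robust variances, 0 with the floor doubled, median scaling, the profile term or wild types alone, and 0 to 1 with 1 condition left out (1 without the tumour).

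The 3-fold tumour rule called 18 to 27 probe sets over scalings and floors (23 as reported). Doubling the floor gave fewer 2-fold calls in pairs, by construction. They were 93 for the CF-1 and 167 for the hybrid cystic ovary over wild type, 243 for the tumour, 289 for the luteoma and 269 for the hCG-treated ovary. The tumour over the CF-1 cystic ovary gave 371, over the luteoma 301 and over the hCG-treated ovary 539, and the luteoma below the hybrid cystic ovary 242. In that setting the Ccn1 log2 difference was 0.52 in the tumour, 1.16 in the luteoma and 0.069 in the hCG-treated pair.

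Signs turned in the following cases, and the cause was not tested. In pairs with under 2-fold differences, Ccn2 in the luteoma over wild type was 0.06 with median scaling, and Fn1 on chip A in the hCG-treated ovary over wild type was -0.0026 with median scaling and -0.07 on the other probe set. Without the tumour, the genotype difference was -0.18 and -0.17 for Fn1 on chips A and B and -0.032 for Thbs1 (leave-out ranges -0.18 to 0.93, -0.17 to 0.83 and -0.032 to 0.77). The age difference of Fn1 was 0.32 and 0.25 with the profile term, which leaves it resting on the 5-month hybrid wild type alone and for genotype and strain amounts to leaving out that array, and ran from -0.85 to 0.35 and from -0.74 to 0.40 over conditions left out, above 0 without the 5-month CF-1 wild type (0.35 and 0.40), the luteoma (0.25 and 0.26) or the 2-month hybrid wild type (0.15 and 0.26). That of Ccn1 was 0.066 with the floor doubled, 0.038 with median scaling, 0.017 without the 2-month CF-1 and 0.057 without the 5-month hybrid wild type (range -0.24 to 0.057). That of Ccn2 was -0.13 without the tumour (range -0.13 to 0.90). The strain difference of Fn1 was -0.37 and -0.19 in wild types alone, and -0.21 and -0.027 without the tumour (ranges -0.21 to 0.99 and -0.027 to 1.11). Arrays limit these values by their number, and signal over background limits Ccn1.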
